A study of Mus musculus with 6 samples.

Results

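Mitotic and DNA replication genes were followed in mouse heart as a set of 40 genes, chosen by symbol from the 24525 gene rows of the deposited TPM table; all 40 symbols were found. TPM expresses abundance per unit of transcript length, as a share of the library. The set was divided by phase into 10 S-phase genes, which serve DNA replication, and 30 mitotic genes. There were 6 RNA-seq libraries, 3 labelled WT (replicates 4, 5 and 6) and 3 labelled DKO (replicates 7, 8 and 9), from hearts of mice aged 3 to 6 months. Per the labels, the DKO genotype is Mbnl1-/-; Mbnl2cond/cond; Myh6-Cre+/-. Mbnl1 is thus null in every cell, while Mbnl2 is deleted where the Myh6 promoter drives Cre recombinase, in cardiomyocytes, and other heart cells keep it. The WT animals are given as WT with no further genotype, and strain and sex are not stated. The labels do not state separate animals, so the p-values cover only the spread among these 6 libraries, and part of it may be technical. The labels of replicate 7 disagree: the title and source name give DKO and the genotype tag gives WT; it was counted as DKO.

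Cells copy their DNA in S phase and divide it in mitosis. Before S phase the ring-shaped MCM helicase, built of 6 related subunits, is loaded on DNA; PCNA then clamps the polymerases to the template while ribonucleotide reductase and thymidylate synthase supply nucleotides. In mitosis cyclin B and CDK1 start division, kinetochore proteins attach chromosomes to the spindle, a checkpoint holds the cell until attachment is complete, and the spindle midzone directs cytokinesis. Most genes of the set are transcribed mainly in dividing cells: replication genes largely through E2F sites, and mitotic genes largely through CHR elements bound by the DREAM and MuvB complexes, often beside CCAAT boxes bound by NF-Y. Adult cardiomyocytes have mostly left the cell cycle, and other cell types of the heart divide at low rates.

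Promoter sequence is shown for the gene with the smallest p among those past the threshold in each of 6 role groups. The shares of promoters with a CHR-type or an E2F-type match, defined below, differed between the phases. Single promoters did not always follow their phase. RefSeq windows on GRCm38.p6, from 250 bases before to 50 after an annotated start, were found for 34 of the 40 genes; the 250 bases before the start are printed, 5′ to 3′ along the gene's strand. Capitals mark matches on either strand to 3 motif classes: CHR-type (TTTGAA or TTCGAA), NF-Y-type (CCAAT) and E2F-type (TTTCGCG, or alternatively GCGCCAA, or alternatively GCGGGAA). The mitotic genes are Mki67 (chr7:135716380-135716629, minus strand), Ccnb1 (chr13:100786487-100786736, minus), Racgap1 (chr15:99651657-99651906, minus) and Cenpa (chr5:30666636-30666885, plus), and the S-phase genes Mcm7 (chr5:138171884-138172133, minus) and Rrm2 (chr12:24708004-24708253, plus).
Mki67: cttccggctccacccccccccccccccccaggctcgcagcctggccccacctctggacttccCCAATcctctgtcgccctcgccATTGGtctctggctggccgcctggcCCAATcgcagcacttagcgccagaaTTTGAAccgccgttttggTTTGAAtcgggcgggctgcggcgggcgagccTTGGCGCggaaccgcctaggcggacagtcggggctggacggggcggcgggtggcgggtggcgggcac
Ccnb1: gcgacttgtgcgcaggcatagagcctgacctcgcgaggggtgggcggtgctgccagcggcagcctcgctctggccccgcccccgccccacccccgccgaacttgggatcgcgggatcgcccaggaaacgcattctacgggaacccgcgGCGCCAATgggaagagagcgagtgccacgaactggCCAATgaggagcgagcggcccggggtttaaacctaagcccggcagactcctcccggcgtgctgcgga
Racgap1: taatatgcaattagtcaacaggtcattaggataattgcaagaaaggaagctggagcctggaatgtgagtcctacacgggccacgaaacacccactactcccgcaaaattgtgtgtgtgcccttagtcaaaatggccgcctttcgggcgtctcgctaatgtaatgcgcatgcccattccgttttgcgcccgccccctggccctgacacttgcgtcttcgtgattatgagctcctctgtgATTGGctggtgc
Cenpa: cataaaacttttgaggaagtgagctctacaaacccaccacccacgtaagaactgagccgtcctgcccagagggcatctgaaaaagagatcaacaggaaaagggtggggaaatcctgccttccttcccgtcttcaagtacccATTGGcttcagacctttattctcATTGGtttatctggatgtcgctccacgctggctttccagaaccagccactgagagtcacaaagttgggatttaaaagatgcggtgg
Mcm7: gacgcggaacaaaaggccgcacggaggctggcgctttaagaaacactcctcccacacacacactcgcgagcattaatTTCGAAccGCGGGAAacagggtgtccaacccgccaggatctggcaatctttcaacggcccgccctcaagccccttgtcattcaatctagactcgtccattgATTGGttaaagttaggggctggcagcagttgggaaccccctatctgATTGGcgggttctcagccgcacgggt
Rrm2: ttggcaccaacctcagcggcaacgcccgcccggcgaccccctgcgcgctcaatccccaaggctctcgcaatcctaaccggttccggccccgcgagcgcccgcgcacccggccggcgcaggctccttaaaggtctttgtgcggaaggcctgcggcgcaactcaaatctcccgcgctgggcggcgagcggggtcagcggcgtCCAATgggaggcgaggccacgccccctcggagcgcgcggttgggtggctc

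The Mki67 promoter holds 2 copies of TTTGAA, 116 and 98 bases before the start, 3 CCAAT boxes and an E2F-type match at 67. In Ccnb1 the E2F-type match overlaps a CCAAT box. Racgap1 and Cenpa each have a TTTGAA just after the start, at bases 6 and 17, outside the stretch shown. Mcm7 has an E2F-type match and a TTCGAA, at 165 and 173 bases before the start. Another 2 E2F-type matches lie after it, at bases 17 and 21, outside the stretch shown. Rrm2 has a CCAAT box alone. The window starts of Mcm7, Mki67 and Cenpa lie inside the gene spans given below. All marked Mcm7 matches and the Mki67 E2F-type match thus lie within the annotated gene. Of the 34 window starts, 20 were found near the start of an annotated transcript. A CHR-type match was found in the windows of 21 of 25 mitotic genes (84.0%) and 2 of 9 S-phase genes (22.2%), against 19.4% of all 27025 promoter windows and 14.0% of the 10881 windows of genes tested. An E2F-type match was found in 4 of 25 mitotic genes (16.0%) and 5 of 9 S-phase genes (55.6%), against 7.64% of all windows and 13.0% of those of the genes tested, so the mitotic share was near that of the genes tested. CCAAT was held by 84.0% of the mitotic and 88.9% of the S-phase genes, against 37.9% of all and 38.4% of those of the genes tested. Each match is a description of letters in these windows, not a measured binding site.

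**Figure D1:**
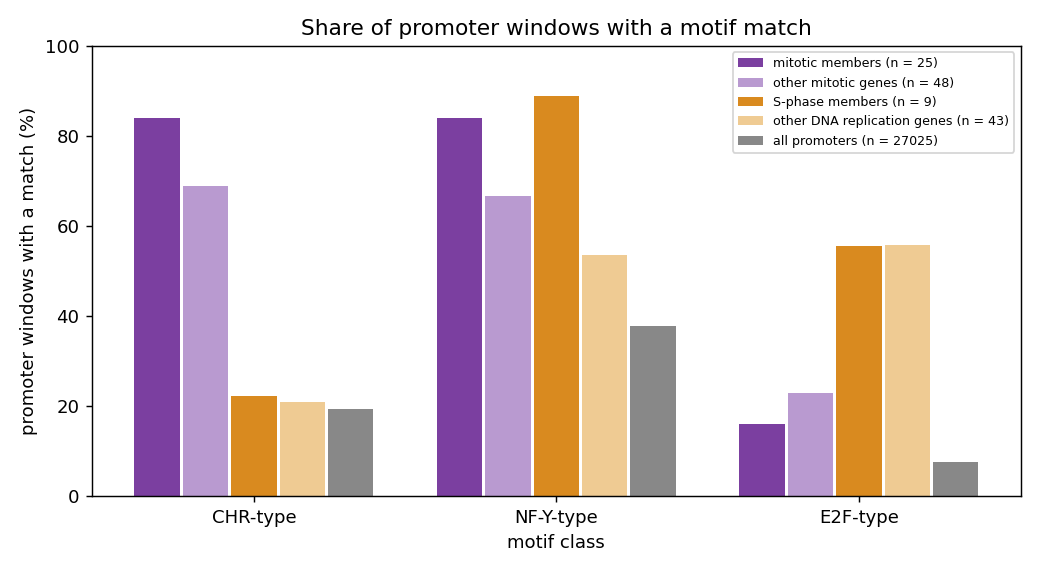
Share of 300-base promoter windows (%) with at least 1 match to each motif class, for mitotic genes, S-phase genes, the other mitotic and replication genes and all promoters of the RefSeq table. CHR-type matches are most frequent in the mitotic bars (84.0% and 68.8%) and E2F-type matches in the replication bars (55.6% and 55.8%).

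The genotype labels were checked first. Mbnl1 was 161, 160 and 145 TPM in WT 4, 5 and 6 and 102, 108 and 107 TPM in DKO 7, 8 and 9; Mbnl2 was 189, 168 and 149 TPM in WT and 227, 240 and 245 TPM in DKO. A gene-level sum includes transcript parts outside a deletion, so neither value checks the deletion. Cardiomyocyte markers were abundant in every library, with 51003 to 56985 TPM summed over 8 genes. Library totals lay between 999963 and 999991 TPM, and depth is unknown because TPM keeps no counts. Y-linked transcripts were present in the 3 WT libraries and in DKO 9, while Xist stood at 152 TPM in DKO 7 and 174 TPM in DKO 8.

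Most transcripts of both phases had higher values in DKO. Of the 30 mitotic genes, 27 had a higher mean in DKO, 17 had all 3 DKO values above all 3 WT values, and 8 rose past the threshold while 1, the centromeric histone gene Cenpa, fell. All 10 S-phase genes had a higher mean in DKO, 7 had values that did not overlap and 5 rose. Of the 19176 genes above 0 TPM in at least 1 library, 10866 had a higher mean log2(TPM + 1) in DKO. Among all 14541 genes tested, 6.51% rose and 4.22% fell (limma on log2(TPM + 1), Benjamini-Hochberg (BH) adjusted p under 0.05), and 19.1% had DKO values above and 13.8% below all WT values. On the log2(TPM + 1) scale, the median difference (DKO minus WT) was 0.68 over the 30 mitotic genes and 0.83 over the 10 S-phase genes, against 0.03 over all genes tested. Mean TPM was at least 2-fold higher in DKO for 15 mitotic and 5 S-phase genes.

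A filter of 1 TPM in at least 3 libraries left out Bub1, Cenpe and Foxm1. It was passed through DKO libraries alone by Ccnb1, Plk1, Bub1b and Cdc20, which therefore had to differ, so counts over the genes that passed are not support for a rise. With no filter, all 40 genes were fitted and 7 mitotic and 4 S-phase genes rose, against 3.90% of the 19176 genes in that fit; Cenpa fell there too. With 3 libraries a group, the calls were sensitive to single libraries. Of the 14 calls in either direction (10.7% of all genes tested were called), 6, 7 and 8 were kept without WT 4, 5 and 6, and 4, 4 and 6 without DKO 7, 8 and 9; those of Mki67, Top2a and Mcm7 were kept in all 6 fits.

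High Xist marks DKO 7 and DKO 8 and no WT library, so in these 2 libraries it cannot be told apart from genotype. In DKO 9 alone, 22 of the 30 mitotic genes (20 of the 27 tested) and 9 of 10 S-phase genes lay above all WT values. The share was 37.8% of all genes tested. A term for high Xist leaves DKO 9 as the only library behind the DKO estimate, so its medians, 0.68 over the tested mitotic and 0.66 over the S-phase genes, are those of DKO 9 against WT and no separate result. With that term 0 of the 37 tested genes passed after adjustment (limma, BH; lowest adjusted p = 0.0615, for Mcm7), and 10 mitotic and 5 S-phase genes were higher at an unadjusted p under 0.05, against 9.25% of all genes tested. With replicate 7 counted as WT, 0 of the 37 tested genes and only 1 of all 14541 genes passed after adjustment (limma, BH). In that fit 3 of 27 mitotic and 0 of 10 S-phase genes had an unadjusted p under 0.05 (limma), against 9.90% of all genes tested.

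**Figure D2:**
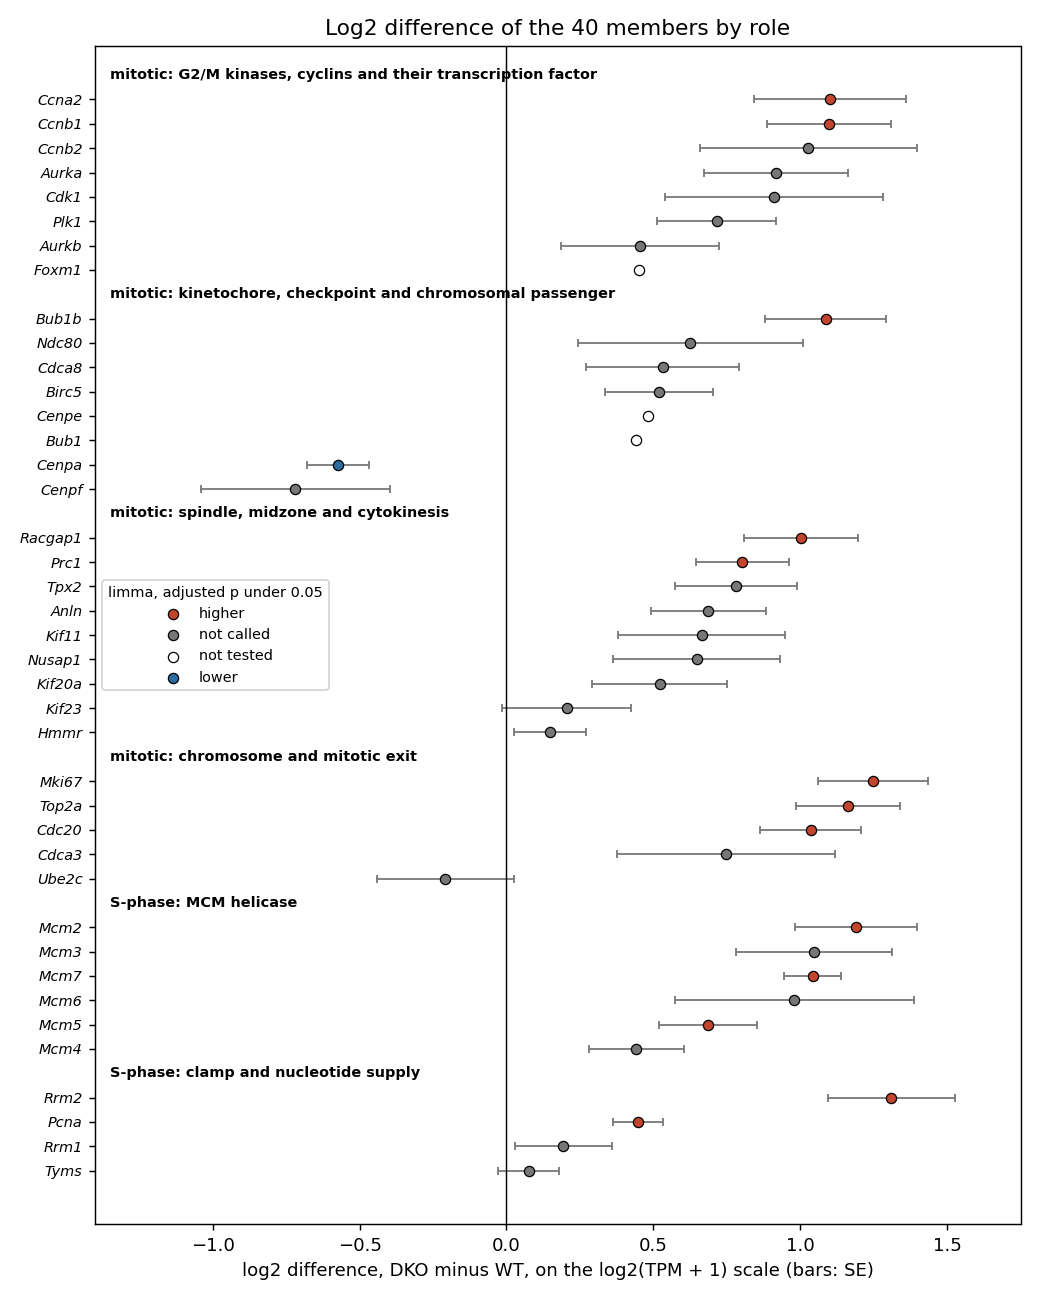
Log2 difference (DKO minus WT, log2(TPM + 1) scale, bars SE from limma) of the 40 genes in 6 role groups; red rose, blue fell, grey did not pass, white was not tested. Of the 40 points 37 lie to the right of 0, and Cenpa, Cenpf and Ube2c lie to the left.

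Mki67 and Top2a, which act on mitotic chromosomes, rose, and they were the 2 mitotic calls kept without each of the 6 libraries in turn. Mki67 encodes the Ki-67 protein that coats mitotic chromosomes (chromosome 7, 135689784 to 135716450). It was 2.48, 2.26 and 3.15 TPM in WT 4, 5 and 6 and 9.15, 7.58 and 6.24 TPM in DKO 7, 8 and 9. The lowest DKO value was thus well above the highest WT value, and DKO exceeded WT by 1.25 in log2 (SE 0.19; BH adjusted p = 0.0111 by limma). Top2a, the topoisomerase that untangles sister chromatids, was 2.76, 2.03 and 2.25 TPM in WT and 7.70, 5.56 and 6.26 TPM in DKO. Its ratio of means was 2.77 (log2 difference 1.16, SE 0.18; BH adjusted p = 0.0116 by limma). DKO 7 was the highest library for both genes.

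Of 3 genes that act at entry to or exit from mitosis, 1 rose, against 6.51% of all genes tested. Cdc20, which activates the anaphase-promoting complex, was 0.743, 0.853 and 0.837 TPM in WT and 2.72, 2.61 and 2.81 TPM in DKO, with the smallest SD in TPM within each group of the mitotic genes that rose (log2 difference 1.04, SE 0.17; BH adjusted p = 0.0155 by limma). The Cdc20 call was lost without DKO 7, DKO 8 or DKO 9, with BH adjusted p by limma up to 0.0587. Ube2c, the ubiquitin-conjugating enzyme of the same complex, was 8.32, 13.7 and 9.30 TPM in WT and 6.51, 10.6 and 9.51 TPM in DKO, with overlapping groups (BH adjusted p = 0.628 by limma). Cdca3, a gene of mitotic entry, ranged from a listed 0 in WT 5 to 2.49 TPM in DKO 9 and stayed short of the threshold (BH adjusted p = 0.252 by limma).

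**Figure D3:**
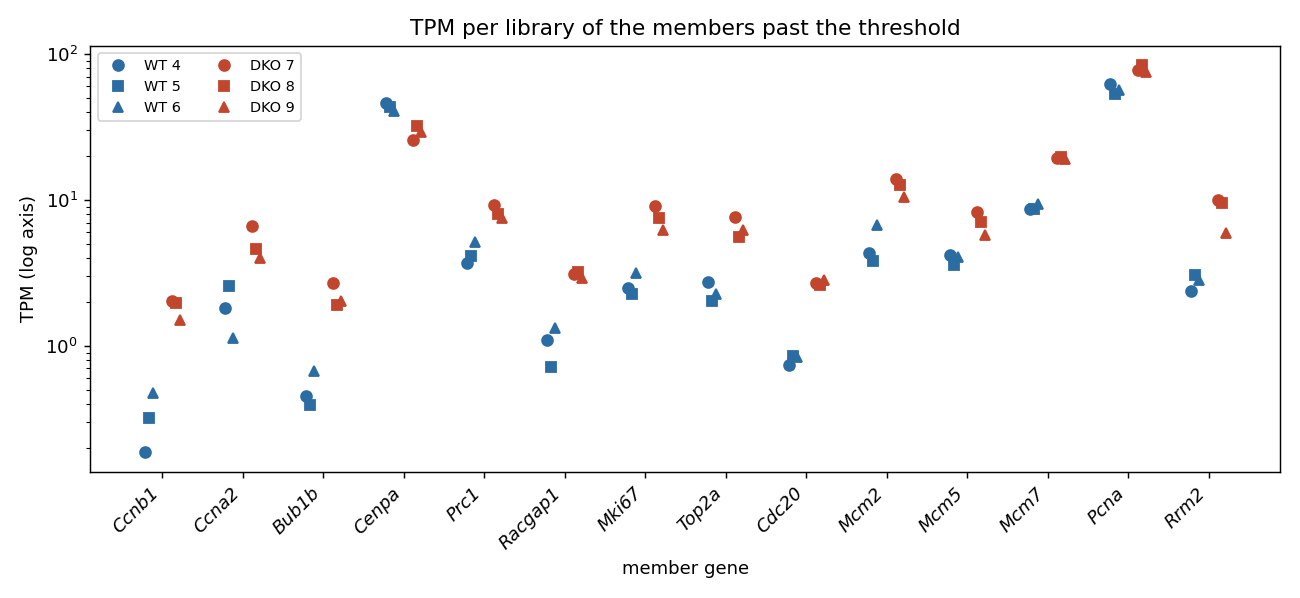
TPM (log axis) in each library of the 14 genes past the threshold; blue WT, red DKO, marker shape the replicate. The red points lie above the blue ones for 13 genes and below them for Cenpa.

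The cyclins and kinases that start mitosis, a group of 8 genes, had WT means from 0.327 to 1.84 TPM and higher means in DKO. Of the 7 tested, 2 rose, against 6.51% of all genes tested. The 8 genes summed to 6.85 to 7.29 TPM in the WT libraries and 16.5 to 23.3 TPM in the DKO libraries. All 30 mitotic genes summed to 116 to 127 TPM in WT and 136 to 149 TPM in DKO. The mitotic cyclin Ccnb1 was 0.187, 0.321 and 0.472 TPM in WT and 2.05, 1.97 and 1.51 TPM in DKO, the largest ratio of the set, 5.63 (log2 difference 1.10, SE 0.21; BH adjusted p = 0.0234 by limma). Its ratio ranged from 4.64 without WT 4 to 7.25 without WT 6. Ccna2, the cyclin of S phase and early mitosis, was 1.81, 2.58 and 1.14 TPM in WT and 6.59, 4.59 and 4.00 TPM in DKO (log2 difference 1.10, SE 0.26; BH adjusted p = 0.0421 by limma). Both calls were fragile: that of Ccnb1 was lost without any 1 of the 6 libraries (adjusted p, limma, BH, 0.0550 to 0.0867), and that of Ccna2 without each library but WT 5 (up to 0.116) and with no filter (0.0666), a pseudocount of 0.1 (0.0502) or median-ratio scaling (0.0510). Quantile scaling ended both calls, with BH adjusted p by limma of 0.0595 for Ccnb1 and 0.0739 for Ccna2.

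The other 6 genes of this group did not pass. The spindle kinase Aurka was 1.16, 0.801 and 0.982 TPM in WT and 3.73, 2.94 and 1.80 TPM in DKO, without overlap (BH adjusted p = 0.0598 by limma, and 0.0497 without DKO 9). Plk1, a kinase of spindle assembly, had a ratio of 2.38, also without overlap (BH adjusted p = 0.0707 by limma), as had Ccnb2, with 3.12 (BH adjusted p = 0.13 by limma). The groups overlapped for Cdk1, the kinase partner of cyclin B, which was 0.149, 1.28 and 1.0 TPM in WT and 3.50, 2.50 and 1.20 TPM in DKO. They also overlapped for Aurkb, the kinase of the chromosomal passenger complex, and for Foxm1, a transcription factor of mitotic genes, which had 0.661 ± 0.313 TPM in WT and 1.32 ± 0.696 TPM in DKO (SD, n = 3) and was not tested.

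Kinetochore genes went in both directions: of 8 genes, 6 had a higher and 2 a lower mean in DKO. Of the 6 tested, 1 rose and 1 fell, against 6.51% and 4.22% of all genes tested. Bub1b, the checkpoint protein BubR1, was 0.456, 0.391 and 0.671 TPM in WT and 2.69, 1.92 and 2.02 TPM in DKO, a ratio of 4.36 (log2 difference 1.09, SE 0.21; BH adjusted p = 0.0227 by limma). That call was lost when any 1 library was left out, with BH adjusted p by limma from 0.0547 to 0.0747. Cenpa, the histone H3 variant that marks centromeres (chromosome 5, 30666877 to 30674837), was 46.4, 43.5 and 40.9 TPM in WT and 25.7, 32.4 and 29.1 TPM in DKO. All DKO values lay below all WT values, at 0.667 of the WT mean (log2 difference -0.57, SE 0.11; BH adjusted p = 0.0211 by limma). The Cenpa call was lost without WT 4, WT 5, WT 6 or DKO 9, with BH adjusted p by limma up to 0.0665.

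Cenpf, a large kinetochore-associated protein, was also below WT in each DKO library, with 12.1, 22.1 and 14.2 TPM in WT and 11.5, 11.7 and 5.50 TPM in DKO, but did not pass (log2 difference -0.72, SE 0.32; BH adjusted p = 0.209 by limma). Cenpa and Cenpf were the 2 most abundant mitotic genes in WT. The 8 genes of this group summed to 66.9 to 75.5 TPM in WT and 52.5 to 62.8 TPM in DKO. The remaining genes of this group had higher means in DKO. Birc5, or survivin, and Cdca8, or borealin, of the chromosomal passenger complex had ratios of 1.49 and 1.78, the microtubule coupler Ndc80 had 1.93 (1.38 without WT 4 and 4.33 without WT 5), and the checkpoint kinase Bub1 and the kinetochore motor Cenpe had 2.01 and 2.17. None of these 5 passed: the lowest adjusted p was 0.124, for Birc5 (limma, BH), and Bub1 and Cenpe were not tested.

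Spindle and cytokinesis genes all had higher means in DKO, and 2 of 9 rose, against 6.51% of all genes tested. Racgap1, the GTPase-activating subunit of centralspindlin, was 1.10, 0.711 and 1.34 TPM in WT and 3.11, 3.20 and 2.91 TPM in DKO (log2 difference 1.0, SE 0.19; BH adjusted p = 0.0237 by limma). Prc1, which bundles midzone microtubules, was 3.70, 4.13 and 5.13 TPM in WT and 9.21, 8.00 and 7.54 TPM in DKO (log2 difference 0.80, SE 0.16; BH adjusted p = 0.0254 by limma). Neither gene overlapped between groups, but both calls were lost without WT 4, WT 5, DKO 7, DKO 8 or DKO 9, with BH adjusted p by limma up to 0.0832. Kif23, the motor partner of Racgap1 in centralspindlin, was 1.49 ± 0.408 TPM in WT and 1.87 ± 0.432 TPM in DKO (SD, n = 3), a ratio of 1.25 with overlapping groups (BH adjusted p = 0.609 by limma).

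The spindle assembly factor Tpx2 (ratio 2.38; BH adjusted p = 0.0584 by limma) and the cytokinetic scaffold anillin, Anln (1.98; adjusted p = 0.0714), did not overlap between groups and did not pass. The motors Kif11, of spindle bipolarity, and Kif20a, of the midzone, had ratios of 1.89 and 1.93, again without overlap, and the microtubule-binding Nusap1 had 1.99 with overlap. Hmmr, a spindle-associated hyaluronan receptor, was 14.4, 11.7 and 13.6 TPM in WT and 13.3, 16.1 and 14.8 TPM in DKO (BH adjusted p = 0.50 by limma). Hmmr was thus above 11 TPM in all libraries, where the median WT mean of this role group was 1.42 TPM.

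In S phase the 6 MCM helicase subunits all had higher means in DKO, and 3 rose, against 6.51% of all genes tested. Summed over Mcm2 to Mcm7 they gave 33.0 to 37.6 TPM in the WT libraries and 67.3 to 75.4 TPM in the DKO libraries. Over all 10 S-phase genes the sums were 162 to 170 TPM in WT and 226 to 242 TPM in DKO. Of the 6 subunits, 5 had DKO values above all WT values, against 19.1% of all genes tested. Mcm7 (chromosome 5, 138164583 to 138172111) was 8.63, 8.66 and 9.40 TPM in WT and 19.4, 19.7 and 19.0 TPM in DKO. With spreads of under 1 TPM within each group, it had the smallest adjusted p of the set (ratio 2.18; log2 difference 1.04, SE 0.10; BH adjusted p = 0.00362 by limma). Mcm2 was 4.35, 3.84 and 6.69 TPM in WT and 14.0, 12.7 and 10.5 TPM in DKO (log2 difference 1.19, SE 0.21; BH adjusted p = 0.0182 by limma), and its call was lost without WT 4, DKO 7 or DKO 8, with up to 0.0660.

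Mcm5 rose less, from 4.21, 3.61 and 4.06 TPM to 8.26, 7.12 and 5.72 TPM (log2 difference 0.69, SE 0.17; BH adjusted p = 0.0460 by limma). This call was lost when any 1 library was left out (BH adjusted p by limma up to 0.126), with no filter, with a filter of 5 TPM and with median-ratio or quantile scaling. Mcm3 was 5.74, 3.03 and 6.44 TPM in WT and 14.1, 9.76 and 9.95 TPM in DKO and stayed short of the threshold (BH adjusted p = 0.0530 by limma). Mcm4 had a ratio of 1.40 (BH adjusted p = 0.137 by limma). Mcm6 alone overlapped, from 2.42 to 7.89 TPM in WT and from 6.18 to 14.5 TPM in DKO. The ratios of the 6 subunits, which form the helicase together, thus ranged from 1.40 to 2.50; differences between subunits were not tested.

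The clamp and nucleotide genes divided by member, and 2 of 4 rose, against 6.51% of all genes tested. Rrm2, the small subunit of ribonucleotide reductase that cycles with S phase, was 2.37, 3.06 and 2.84 TPM in WT and 9.99, 9.57 and 5.91 TPM in DKO, the largest log2 difference of the set (1.31, SE 0.22; BH adjusted p = 0.0153 by limma). Rrm1, the large subunit of the same enzyme, was 10.8, 14.3 and 9.89 TPM in WT and 14.7, 13.9 and 11.5 TPM in DKO, with overlap (BH adjusted p = 0.512 by limma). In WT Rrm1 was thus several TPM above Rrm2, and in DKO 7 to 9 the gap was narrower. Pcna, the sliding clamp, was 62.4, 53.3 and 57.1 TPM in WT and 77.8, 83.8 and 75.0 TPM in DKO, a ratio of 1.37 (log2 difference 0.45, SE 0.08; BH adjusted p = 0.0226 by limma).

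Tyms, thymidylate synthase, was 60.2, 60.4 and 55.0 TPM in WT and 53.6, 67.7 and 64.6 TPM in DKO and overlapped (BH adjusted p = 0.693 by limma). The Rrm2 call was lost without DKO 7 or DKO 8 (BH adjusted p by limma up to 0.0596). The Pcna call was lost without WT 5, WT 6, DKO 7 or DKO 8 (BH adjusted p by limma up to 0.0765) and with a variance estimate that has no trend.

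Most of the abundant genes had ratios under the median of the others, with Mcm7 as the exception. Of the 7 genes with a mean over all 6 libraries of at least 10 TPM, Hmmr, Cenpa, Cenpf, Pcna, Tyms, Rrm1 and Mcm7, the ratios of the 3 mitotic genes ranged from 0.593 to 1.12 and those of the 4 S-phase genes from 1.06 to 2.18. Among genes under 10 TPM the median ratio was 2.17 for both the 27 mitotic and the 6 S-phase genes. Of these, 8 mitotic and 3 S-phase genes rose, and 3 mitotic genes were not tested. Among the 5167 tested genes under 10 TPM, 5.26% rose and 18.9% had DKO values above all WT values. Ccnb1, Bub1b and Cdc20, among the 8, passed the filter through DKO libraries alone, so this count is not support for a rise. This split was drawn after the values were seen and is a description, with no test. The ratio and the WT level share the WT values, so a low WT value raises the ratio by itself. Log2(TPM + 1) also understates the change of the genes under 1 TPM: with a pseudocount of 0.1 the median log2 difference of the tested mitotic genes was 1.16 in place of 0.72.

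**Figure D4:**
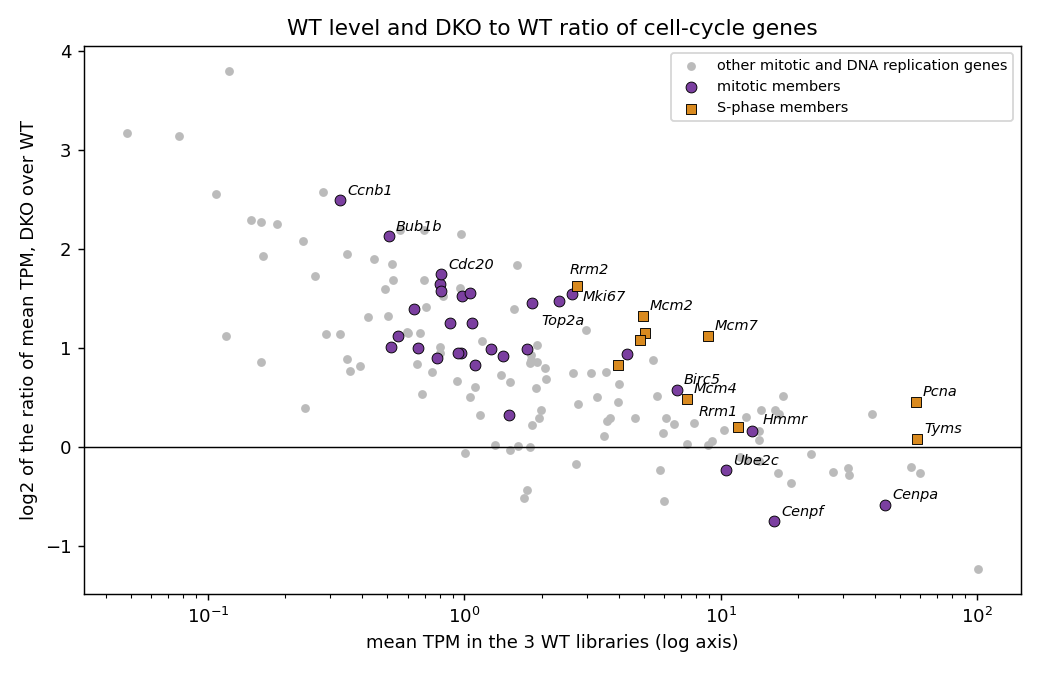
Mean WT TPM (log axis) against the log2 ratio of mean TPM, DKO over WT, for mitotic genes (purple), S-phase genes (orange) and the other mitotic and replication genes (grey). Most points under 10 TPM lie above 0, and Pcna, Tyms, Cenpa and Cenpf sit at the right, between ratios of 1.37 and 0.593; both axes use the WT values.

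Some values may draw on reads of other loci. Reads are assigned to transcripts by short exact words, and the share of each gene's words of 31 bases found in transcripts of another gene was taken from the GENCODE M21 annotation. Counting transcripts in the same orientation, it was highest for Ccnb1 (27.7%), Mcm7 (26.8%), Cdc20 (25.5%) and Pcna (23.3%), with the pseudogenes Ccnb1-ps, Gm5487, Gm7856 and Pcna-ps2 holding most of these words. Plk1 came next with 14.8%, shared with Plk-ps1, and then Rrm2 with 12.0%. The values of these genes are uncertain to that extent, since how the authors' index treated pseudogenes is not given in the sources used here. Tyms shared 9.82%, in part with Tyms-ps, listed at 4.63 TPM in WT and 3.96 TPM in DKO. In the opposite orientation Tyms shared 5.94%, in part with Reep3 (43.7 TPM in WT and 51.3 in DKO) and A130077B15Rik (217 and 313 TPM). Ndc80 shared 7.86% in the same orientation, in part with 2700099C18Rik (0.559 TPM in WT and 2.13 in DKO). Cenpa shared 2.61%.

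Genes on the opposite strand also overlap members, and whether the quantification used strand is not given. Kif20a shared 26.7% of its words with the antisense gene Cdc23 (means of 20.5 TPM in WT and 20.6 in DKO), Ube2c 21.1%, mostly with Tnnc2 (0.223 and 0.763 TPM), Ccna2 12.0%, mostly with Exosc9 (24.0 and 22.6 TPM), and Prc1 10.8%, mostly with Rccd1 (9.29 and 7.21 TPM). None of these 4 neighbours had a DKO mean above its WT mean by as much as 1 TPM. Some neighbours with smaller shares did. Mcm7 shared 6.52%, mostly with Ap4m1 (10.4 and 10.3 TPM) and in part with Cops6 (129 and 155 TPM). Cdca8 shared 4.31%, mostly with 9930104L06Rik (7.07 and 8.20 TPM), and Cdc20 1.22%, with Elovl1 (13.6 and 17.0 TPM). Whether reads of neighbours entered these values was not tested.

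Further genes of the same processes were read from lists that the 40 genes do not share. Of 60 other mitotic genes, 39 were tested (9 passed the filter through DKO libraries alone). Of the 39, 2 rose (5.13%) and 1 fell, against 6.51% and 4.22% of all genes, so the share that rose was not above that of all genes. A higher mean in DKO was found for 54 of the 60, against 10866 of 19176 genes with no filter. The median log2 difference was 0.50. Their summed TPM overlapped between groups, from 218 to 359 in WT and from 257 to 354 in DKO. Iqgap3, a cytokinesis scaffold, was 0.697 ± 0.280 TPM in WT and 3.17 ± 0.354 TPM in DKO (SD, n = 3), and Ect2, the exchange factor that Racgap1 partners in cytokinesis, was 0.825 ± 0.0859 and 2.37 ± 0.142 TPM (BH adjusted p = 0.0129 and 0.0263 by limma). The kinetochore protein Zwint, abundant like Cenpa, fell from 59.8 ± 1.12 to 49.6 ± 0.902 TPM (SD, n = 3; BH adjusted p = 0.0443 by limma). The mitotic kinase Pbk had 0.563 and 2.56 TPM and stayed short of the threshold (BH adjusted p = 0.0521 by limma). Ect2 and Zwint were called in none of the fits that left out 1 library, and Iqgap3 was lost without DKO 7 or DKO 8. With no filter 5 of 60 rose and 1 fell, where 3.90% of all genes in that fit rose. With a filter of 0.5 TPM 5 of 53 rose and 1 fell, where 6.11% of all genes rose. Without trend 6 of 39 rose and 0 fell, where 685 of 14541 genes rose.

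Of 53 other DNA replication genes, 47 were tested, 3 rose and 0 fell (1 was lower at an unadjusted p under 0.05, limma), and the median log2 difference over the 53 was 0.23. The share that rose, 6.38%, was near the 6.51% of all genes tested. Cyclin E, Ccne1, was 0.967 ± 0.134 TPM in WT and 4.28 ± 1.01 TPM in DKO, a ratio of 4.43 (SD, n = 3; BH adjusted p = 0.0107 by limma), and passed in all 6 fits that left out 1 library. Gins2, a subunit of the active helicase, was 1.61 ± 0.711 and 5.76 ± 1.24 TPM, and Uhrf1, which carries DNA methylation through replication, was 0.957 ± 0.409 and 2.91 ± 0.299 TPM (SD, n = 3; BH adjusted p = 0.0219 and 0.0320 by limma). Gins2 was lost without WT 5, DKO 7 or DKO 9, and Uhrf1 without each library but WT 4. The single-strand binding protein Rpa1 was 38.9 and 49.1 TPM and stayed short of the threshold (BH adjusted p = 0.0588 by limma).

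The transcription factors and repressors that control these genes did not share a direction. Of 18 tested E2F, DREAM and MuvB genes, 1 rose (5.56%, against 6.51% of all genes tested) and 2 fell (4.22% of all fell), with a median log2 difference of -0.03. E2f1, an activator of S-phase genes, was 1.98, 2.04 and 1.77 TPM in WT and 4.36, 6.63 and 6.52 TPM in DKO (ratio 3.03; BH adjusted p = 0.0134 by limma), a call lost without DKO 8. The repressor E2f6 fell from 76.7 ± 3.57 to 51.4 ± 6.92 TPM and the retinoblastoma gene Rb1 from 27.8 ± 1.11 to 20.9 ± 1.51 TPM (SD, n = 3; BH adjusted p = 0.0208 and 0.0388 by limma). Rb1 was called in none of the fits that left out 1 library, and E2f6 was lost without WT 4, WT 6, DKO 7 or DKO 8. Rbl1, the pocket protein p107, had 3.13 and 5.64 TPM and stayed short of the threshold (BH adjusted p = 0.0668 by limma).

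Within DKO the libraries were not alike. DKO 7 had the highest of the 3 DKO values for 24 of the 40 genes and DKO 9 the lowest for 21. Summed over the 40 genes, DKO 8 was highest, with 391 TPM, against 381 TPM in DKO 7 and 363 TPM in DKO 9. The median over the 40 genes of the log2 deviation from the WT mean was 0.87 in DKO 7, 0.65 in DKO 8 and 0.66 in DKO 9, against -0.07 to 0.04 in the WT libraries. Without DKO 7 the median log2 difference was 0.68 over the tested mitotic and 0.73 over the S-phase genes.

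Macrophage, fibroblast and neutrophil markers also had higher sums in DKO. In bulk tissue, more cells of a type and more RNA per cell cannot be told apart. The 9 macrophage markers summed to 192 to 298 TPM in WT and 423 to 571 TPM in DKO, 5 rose and none was at 0, and DKO 7 was highest. The 8 fibroblast markers summed to 986 to 1016 TPM in WT and 1214 to 1524 TPM in DKO, and 4 rose. Their lowest DKO sum was in DKO 7 and their highest in DKO 8. The 4 neutrophil markers summed to 5.34 to 8.67 TPM in WT and 13.3 to 58.5 TPM in DKO, highest in DKO 7; Ly6g was listed at 0 in all libraries, and 0 of the 3 tested passed (limma). Lymphocyte markers overlapped, with 18.3 to 30.6 TPM in WT and 17.4 to 19.7 TPM in DKO over 8 genes. Of the 4 tested, 1, Cd79a, fell. Among all genes tested, 6.51% rose and 4.22% fell.

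Other lists were lower in DKO. The sums were 755 to 890 TPM in WT and 681 to 760 TPM in DKO over 9 endothelial markers, 633 to 664 and 507 to 563 TPM over 7 smooth muscle and pericyte markers, and 56155 to 56985 and 51003 to 52036 TPM over 8 cardiomyocyte markers. In each of the endothelial, smooth muscle and cardiomyocyte lists 2 genes fell, and Ttn of the cardiomyocyte list rose. The 7 erythroid markers summed to 6046 to 38465 TPM in WT and 1782 to 6764 TPM in DKO, highest in WT 5. Of the 6 tested, 1 fell. These counts stand beside 4.22% of all genes tested that fell and 6.51% that rose. The part of any of these cell types in the rise of mitotic and replication genes was not tested, and the cells that carry these transcripts are not identified in bulk RNA.

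**Figure D5:**
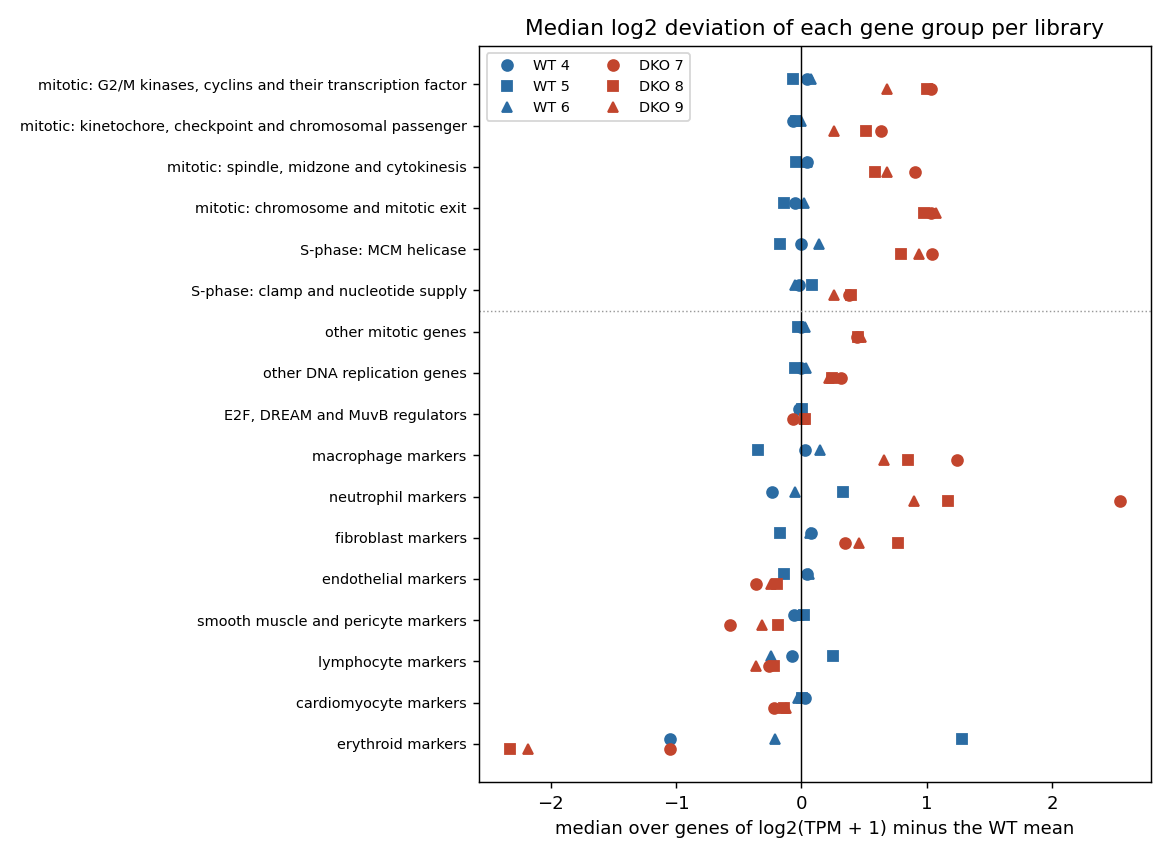
Median over the genes of each list of log2(TPM + 1) minus the WT mean, per library (blue WT, red DKO, marker shape the replicate). The 6 role groups above the dotted line have all DKO points right of all WT points, as have the macrophage, neutrophil and fibroblast markers.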

How the data were processed

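The authors deposited 1 table of TPM values per gene and library for 6 heart libraries. The submitters' processing notes name kallisto 0.44.0, bcl2fastq and mm10; not given in the sources used here are the annotation, the step from transcripts to genes and any use of strand. TPM divides by length and library total and keeps no depth. Groups follow titles. A gene was tested if 3 or more libraries reached 1 TPM, on log2(TPM + 1) with limma 3.58.1 (eBayes with trend) in R 4.3.3, Benjamini-Hochberg adjusted over the 14541 genes that passed (threshold 0.05); the fit was tested on simulated data. Named genes are the 40 members and the 4 smallest p of each further list, and Cd79a, Ly6g and Ttn, chosen after their values were seen. The alternatives were other pseudocounts, filters, scalings and variance estimates, a term for Xist, Y-linked libraries alone, replicate 7 as WT and each library left out. Of the 237 listed symbols, 2 were found through RefSeq synonyms. Members and lists were chosen with earlier results of these data known. Promoters are RefSeq windows (GRCm38.p6), the one listed earliest per gene; figures used matplotlib 3.10.9.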

Additional observations from a re-analysis of the deposited data

How the results depend on the processing

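No paired analysis was possible because WT and DKO share no replicate numbers. Under 3 settings the counts called fell from 1560 genes, 9 mitotic, 5 S-phase, 3 other mitotic, 3 other replication and 3 regulator genes. With a term for high Xist they were 92, 0, 0, 0, 0 and 0 (2227 of all 14541, and 12, 5, 7, 6 and 3 of the lists, at an unadjusted p under 0.05, limma), with Y-linked libraries alone, where the lone DKO library is assumed to vary like WT, 12, 0, 0, 0, 0 and 0 (2194, 9, 4, 6, 5 and 2), and with replicate 7 as WT 1, 0, 0, 0, 0 and 0 (1439, 3, 0, 2, 1 and 2). Leaving out each library gave 622 to 877 genes, 3 to 5 mitotic, 1 to 4 S-phase, 0 to 2 other mitotic, 1 to 3 other replication and 0 to 2 regulator genes. A 5 TPM filter, which leaves fewer genes to test, gave 4 mitotic, 1 other mitotic and 0 other replication genes (5 at an unadjusted p under 0.05, limma). Other mitotic calls were 6 with no filter, a 0.5 TPM filter or no trend, and other replication calls 5 with no trend. The mitotic median of 0.72 became 1.16 with pseudocount 0.1, 0.33 with the 5 TPM filter, 0.54 with quantile scaling and 0.47 with replicate 7 as WT; the S-phase median of 0.83 became 0.48 with replicate 7 as WT. Calls were also lost for Mcm5 with no filter, the 5 TPM filter and both scalings, Ccna2 with no filter, pseudocount 0.1 and both scalings, Ccnb1 with quantile scaling and Pcna with no trend. The uncalled Kif23 (-0.027) and Ube2c (0.12) changed sign with replicate 7 as WT. Except for construction as noted, the cause was not tested. Leaving out a library gave medians of 0.68 to 0.81 (mitotic) and 0.67 to 0.85 (S-phase). Median-ratio and quantile scaling put the median of all genes at 0.00 and -0.02, against 0.03.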
